A study of Rattus norvegicus with 6 samples.

Results

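The genes described are 8 genes of cholesterol synthesis and its control in H9c2 cells: Hmgcs1, Idi1, Fdps, Fdft1, Sqle, Lss, Cyp51 and Insig1. They were taken by symbol, and each symbol matched 1 row among the 24360 gene rows of the deposited count table. H9c2 is a line of myoblasts from embryonic rat heart, labelled as wild type and as embryonic cardiomyocytes, and as a line it stands for heart muscle only in part. RNA was sequenced from 3 control samples (Ctrl, labelled NC) and 3 samples given ginsenoside Rb2 (Rb2), a saponin of ginseng. A single protocol text accompanies all 6 samples: 48 h of Rb2, then 4 to 6 h without oxygen and glucose, then 12 h with both restored. Whether the controls were also deprived is not given in the sources used here. No label tells whether replicates came from separate cultures; p-values then reflect only the scatter among these 6 samples, possibly technical.

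Animal cells build cholesterol from acetyl-CoA through mevalonate, isoprenoid units, farnesyl diphosphate, squalene and lanosterol. The genes of these steps are targets of the transcription factor SREBP-2, which is held in the endoplasmic reticulum by SCAP and the INSIG proteins while sterols are plentiful. When sterols run low, SREBP-2 is cut free and raises sterol synthesis. Insig1 is itself a target, so the pathway restrains itself. Several steps use molecular oxygen, among them those catalysed by squalene epoxidase (Sqle) and by the lanosterol demethylase (Cyp51).

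RefSeq promoters of assembly GRCr8 were matched for 6 of the 8 genes. The 250 bases before the start of Idi1 and of Fdps are shown because these genes encode successive steps and the ratio of their counts separated the groups. Capitals mark CCAAT, read on either strand (ATTGG on the other), the letters bound by NF-Y, a usual partner of SREBP. The Idi1 window is chr17:66547525-66547774 and the Fdps window chr2:176804817-176805066, both on the minus strand and both printed 5′ to 3′ along the gene.
Idi1: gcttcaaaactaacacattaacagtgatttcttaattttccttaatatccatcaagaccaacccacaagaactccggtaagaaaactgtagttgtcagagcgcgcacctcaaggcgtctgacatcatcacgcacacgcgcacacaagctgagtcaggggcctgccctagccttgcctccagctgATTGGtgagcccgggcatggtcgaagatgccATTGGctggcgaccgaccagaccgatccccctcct
Fdps: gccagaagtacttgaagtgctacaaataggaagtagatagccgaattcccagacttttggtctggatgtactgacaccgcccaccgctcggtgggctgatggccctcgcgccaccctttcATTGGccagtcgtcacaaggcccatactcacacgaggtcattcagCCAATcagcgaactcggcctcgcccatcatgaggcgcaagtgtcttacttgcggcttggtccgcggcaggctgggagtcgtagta
Both windows hold CCAAT 2 times. CCAAT was found in 5 of the 6 matched promoters and in 34% of all 33469 windows of this length. The sterol regulatory element searched as TCACNCCAC on both strands was in none of the 6 and in 0.974% of all windows. Other forms of the element were not searched, so these promoters may still hold one. The GC box GGGCGG was in 5 of the 6 and in 30.5% of all, and CACGTG was in 1 of the 6, Insig1, and in 5.59% of all. None of these motifs contains another. A match describes letters in the window and no binding was measured.

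The libraries held 5193077 to 8793390 counts, the most in Ctrl replicate 1. Pairs of libraries were compared by a chi-square of their gene counts, divided by the degrees of freedom. It was 10.8 to 21.6 in the pairs that held Ctrl replicate 1. In the other pairs it ran from 1.71 (Rb2 replicates 2 and 3) to 10.3 (Ctrl replicate 2 with Rb2 replicate 2). No libraries were thus alike within sampling noise. What part the greater depth of Ctrl replicate 1 had in its values was not tested. Levels below are CPM scaled by TMM, a factor per library that evens out composition. Among heart markers 8 of 10 were listed and 1, Tnnt2, passed the filter on low counts. The summed level of the list was 49.6 to 63.8 CPM in Ctrl and 44.7 to 51.1 CPM in Rb2. Nearly all of it was Tnnt2, at 48.0 to 61.4 CPM in Ctrl and 42.1 to 49.6 CPM in Rb2. No other heart marker listed exceeded 1.84 CPM (Myh6 in Rb2 replicate 3), and Actc1 was at 0. The myoblast list, 7 of 8 listed with Myod1, Myog and Des past the filter, summed to 31.9 to 41.4 CPM in Ctrl and 38.4 to 44.5 CPM in Rb2. The 2 endothelial markers listed summed to at most 0.178 CPM and the 4 leukocyte markers to at most 2.58 CPM. Of the 5 epithelial markers, 4 were at 0 and Krt8 averaged 36.8 ± 4.86 and 36.1 ± 3.26 CPM in the Ctrl and Rb2 libraries (SD, n = 3).

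No cholesterol synthesis gene of the 8 passed the test between Rb2 and Ctrl. With edgeR's quasi-likelihood test, 0 of 8 had an adjusted p under 0.05, against 2.7% of the 11551 genes tested (1.9% higher and 0.805% lower in Rb2). At an unadjusted p under 0.05 there was 1 of 8, Sqle, against 20% of all genes, and DESeq2 and limma-voom also called 0. All 8 passed the filter on low counts. The fold changes lay 4 above and 4 below 0 (6 above with library size in place of TMM, where Lss and Insig1 turned sign), with a median of 0.02 on the log2 scale, against a median of -0.02 over all genes. Of the 8, 5 lay inside the interquartile range of all genes, which ran from -0.24 to 0.26; Hmgcs1, Idi1 and Sqle lay above it. The groups did not overlap in 2 of the 8, Hmgcs1 and Sqle, as was the case in 27.2% of all genes. In bulk RNA, fewer expressing cells and less RNA in each cell cannot be told apart.

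**Figure D1:**
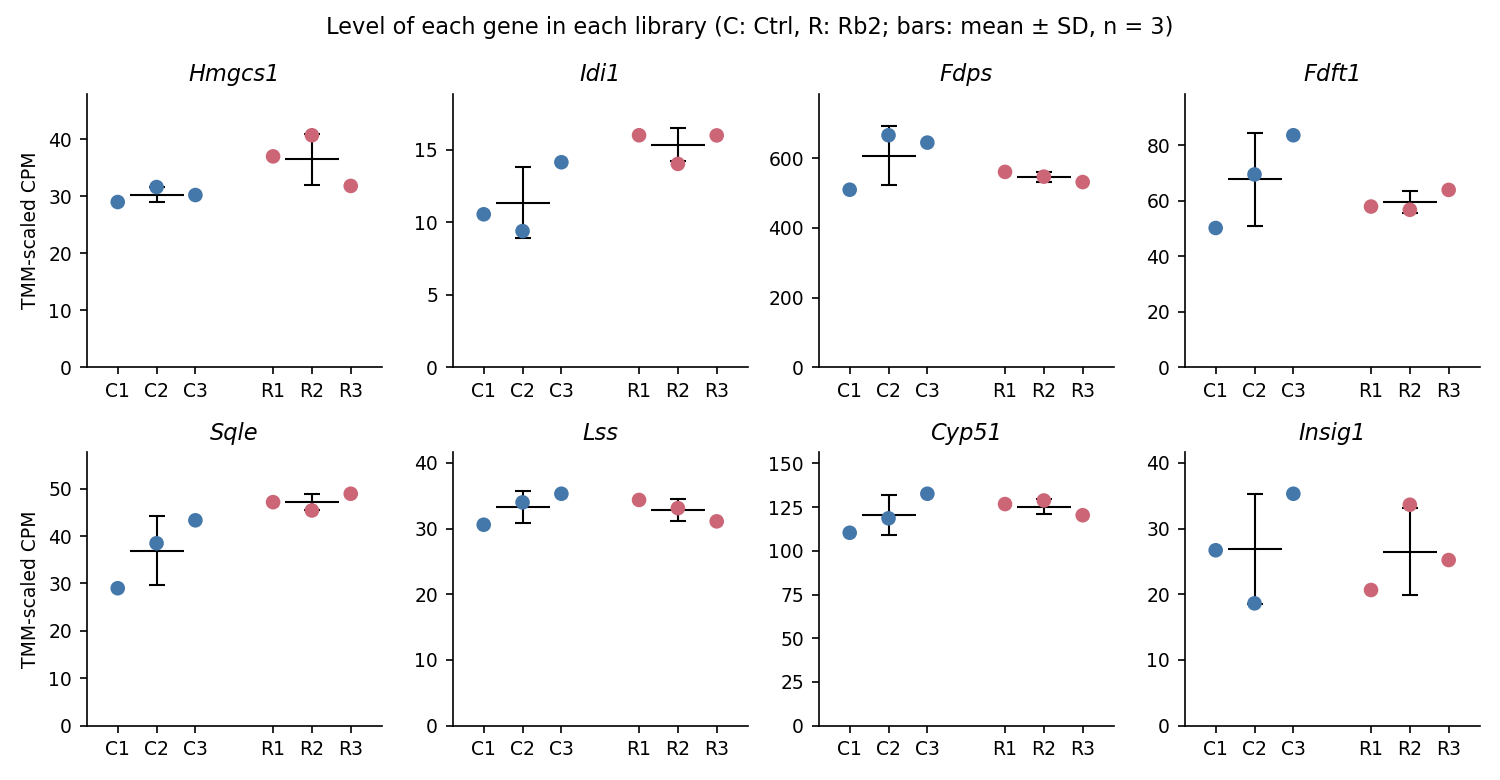
TMM-scaled CPM (y axis, from 0) of each of the 8 genes in each of the 6 libraries; blue points are Ctrl, red points Rb2, and the bars give the mean ± SD of each group (n = 3). The groups are apart only in Hmgcs1 and Sqle, and Ctrl replicate 1 (C1) is the lowest library in all panels but Idi1 and Insig1.

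The early steps begin with Hmgcs1, the cytosolic HMG-CoA synthase that opens the mevalonate route. Its level was 29.0, 31.6 and 30.2 CPM in Ctrl replicates 1 to 3 and 37.0, 40.7 and 31.8 CPM in Rb2 replicates 1 to 3. Every Rb2 library was above every Ctrl library, though Rb2 replicate 3 by little. The means were 30.3 ± 1.32 and 36.5 ± 4.47 CPM (SD, n = 3; log2 fold change 0.27, SE 0.14, edgeR adjusted p = 0.312), with a fold of 1.21 and a 95% interval of 0.97 to 1.50. Idi1 encodes the isomerase that interconverts the isoprenoid units joined by the next enzyme. It measured 10.6, 9.40 and 14.2 CPM in Ctrl against 16.0, 14.0 and 16.0 CPM in Rb2. Only Ctrl replicate 3 reached the range of Rb2. Its log2 fold change was 0.43, the largest in size of the 8 (SE 0.20, edgeR adjusted p = 0.256; fold 1.35, 95% interval 1.00 to 1.83), and it rested on 52 to 90 counts per library.

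Fdps, which makes farnesyl diphosphate, the branch point to sterols, ubiquinone, dolichol and prenylated proteins, had the highest level of the 8. It measured 510, 666 and 645 CPM in Ctrl against 561, 547 and 532 CPM in Rb2. Ctrl replicates 2 and 3 were above all Rb2 libraries and Ctrl replicate 1 was below them. The log2 fold change was -0.15 (SE 0.11, edgeR adjusted p = 0.467; fold 0.90, 95% interval 0.76 to 1.06). Without Ctrl replicate 1 it was -0.25 and passed the threshold (edgeR adjusted p = 0.0187), the one call of a member in the 18 alternatives. Fdft1, squalene synthase, commits farnesyl diphosphate to sterols. Its Ctrl libraries were at 50.1, 69.4 and 83.5 CPM, spanning the Rb2 libraries at 57.8, 56.7 and 63.8 CPM. The log2 fold change was -0.18 (SE 0.17, edgeR adjusted p = 0.597; fold 0.88, 95% interval 0.67 to 1.16). Without Ctrl replicate 1 it was -0.35 (edgeR adjusted p = 0.0653), and without Ctrl replicate 3 it was 0.01.

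Sqle, squalene epoxidase, adds an oxygen atom to squalene. It measured 29.0, 38.5 and 43.3 CPM in Ctrl against 47.2, 45.4 and 48.9 CPM in Rb2, with the 3 Rb2 libraries close together above a wide Ctrl range. The means were 36.9 ± 7.29 and 47.2 ± 1.76 CPM (SD, n = 3; log2 fold change 0.36, SE 0.16, unadjusted p = 0.0492 and adjusted p = 0.248 with edgeR), a fold of 1.28 with a 95% interval of 1.00 to 1.64. Without Ctrl replicate 1, its lowest library, the log2 fold change was 0.22 (edgeR adjusted p = 0.246), and without Ctrl replicate 3, its highest Ctrl library, it was 0.50 (edgeR adjusted p = 0.0886).

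Lss, lanosterol synthase, closes the sterol rings. Its libraries were at 30.6, 34.0 and 35.3 CPM in Ctrl against 34.3, 33.1 and 31.1 CPM in Rb2, so the Rb2 range lay inside the Ctrl range. The log2 fold change was -0.02 and the fold 0.99 (95% interval 0.81 to 1.21; edgeR adjusted p = 0.961). Cyp51, the lanosterol demethylase, measured 110, 119 and 133 CPM in Ctrl against 127, 129 and 120 CPM in Rb2, again inside the Ctrl range. Its log2 fold change was 0.06 (SE 0.10, edgeR adjusted p = 0.801) and its fold 1.04, and it had the narrowest interval of the 8 on the log2 scale, -0.17 to 0.29. Insig1, the sterol-sensing brake on SREBP-2, varied most within groups: 26.7, 18.6 and 35.3 CPM in Ctrl against 20.6, 33.6 and 25.2 CPM in Rb2. Its log2 fold change was -0.02 (SE 0.25, edgeR adjusted p = 0.975), and the interval of the fold, 0.67 to 1.46, leaves room for changes in either direction. Missing the threshold does not show that any of these genes was equal in the groups. In simulated counts of the same depth and spread, the test recovered 48% of genes changed 2-fold. Those genes were drawn from all genes tested, so that share does not describe these 8. Their own 95% intervals of the fold ran from 0.67 at the lowest (Insig1) to 1.83 at the highest (Idi1).

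**Figure D2:**
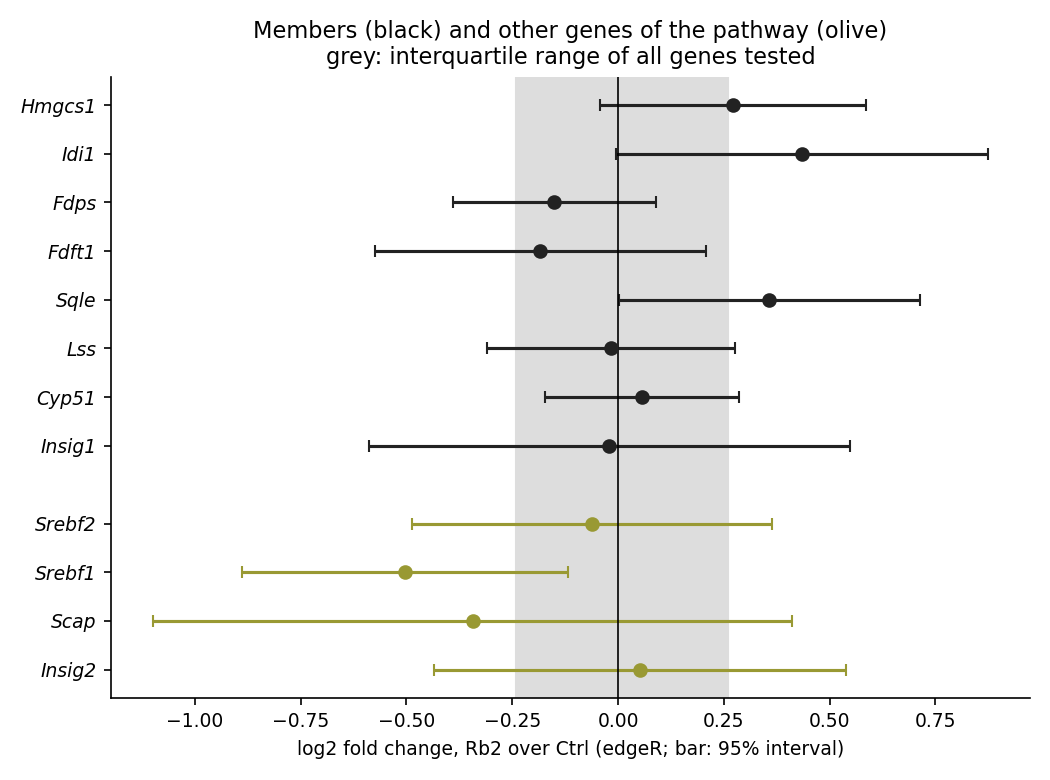
Log2 fold change of Rb2 over Ctrl (x axis, edgeR) with 95% intervals for the 8 genes (black) and 4 other genes of the pathway (olive); the grey band is the interquartile range of all genes tested, -0.24 to 0.26. Among the 8 only the interval of Sqle clears 0, and among the others that of Srebf1, neither past the adjusted threshold.

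Levels per kilobase of transcript compare genes only where counts grow with transcript length, which was not tested. On that scale the order of levels in Ctrl was Fdps (476 ± 62.9 CPM per kilobase), Cyp51 (36.4 ± 3.14), Fdft1 (21.6 ± 5.19), Sqle (15.9 ± 2.88), Lss (13.4 ± 1.15), Insig1 (9.44 ± 3.31), Hmgcs1 (9.10 ± 0.32) and Idi1 (4.08 ± 0.87; SD, n = 3). Fdps, Cyp51 and Idi1 were separated from their neighbours by more than the spread. Fdft1 and Sqle, Sqle and Lss, Lss and Insig1, and Insig1 and Hmgcs1 were not. That measure ignores that the genes share libraries. Within each Ctrl library Fdft1 was above Sqle (16.2 and 12.9, 22.1 and 16.3, 26.5 and 18.6 in replicates 1 to 3). The order of the other pairs not separated varied between the Ctrl libraries. In Rb2 the values were 427 ± 10.2 for Fdps, 37.6 ± 1.24 for Cyp51, 19.9 ± 0.85 for Sqle, 18.9 ± 1.28 for Fdft1, 12.1 ± 1.80 for Lss, 10.9 ± 1.31 for Hmgcs1, 10.1 ± 2.74 for Insig1 and 5.48 ± 0.41 for Idi1. Sqle stood below Fdft1 in Ctrl and above it in Rb2 by these means, but only after division by length. In undivided CPM, Sqle was below Fdft1 in both groups (36.9 and 67.7 in Ctrl, 47.2 and 59.5 in Rb2). In Ctrl, Hmgcs1 (30.3 CPM) was then above Insig1 (26.9 CPM). Fdps alone made up 63.3% to 67.5% of the summed CPM of the 8 in Ctrl and 60.8% to 62.3% in Rb2.

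Because ratios of counts within a library do not depend on scaling, each enzyme gene was compared with the one before it among the 7 enzymes of the 8, in pathway order (other enzymes act between Hmgcs1 and Idi1); these ratios were chosen after the values had been seen and are given with no test. The clearest was the ratio of Sqle to Fdft1, the enzymes that use and make squalene. It was 0.579, 0.555 and 0.519 in Ctrl and 0.815, 0.801 and 0.767 in Rb2. Each group was tight and the gap between them was wider than either, with means of 0.551 ± 0.030 and 0.794 ± 0.025 (SD, n = 3). The ratio of Fdps to Idi1 was 48.3, 70.9 and 45.6 in Ctrl and 35.0, 39.0 and 33.2 in Rb2, and that of Lss to Sqle was 1.05, 0.883 and 0.815 in Ctrl and 0.728, 0.729 and 0.635 in Rb2, both without overlap. The ratios of Idi1 to Hmgcs1, Fdft1 to Fdps and Cyp51 to Lss overlapped between the groups. Among all 28 pairs of the 8 genes, 11 ratios (39.3%) did not overlap, against 25.9% of all pairs of tested genes; pairs that share a gene are not independent.

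**Figure D3:**
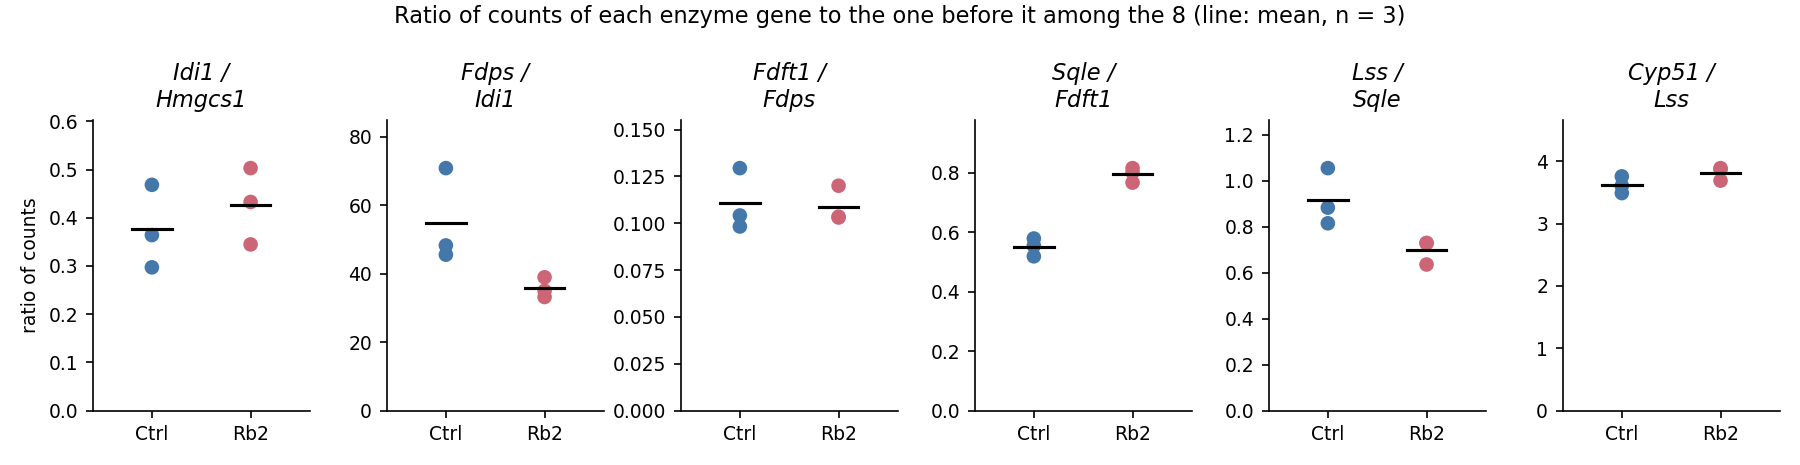
Ratio of the counts of each enzyme gene to those of the enzyme gene before it among the 8 (y axes from 0, a separate scale per panel); points are libraries, blue for Ctrl and red for Rb2, and lines are group means (n = 3). The groups separate for Fdps over Idi1, Sqle over Fdft1 (0.519 to 0.579 against 0.767 to 0.815) and Lss over Sqle.

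Ctrl replicate 1 had the lowest level of the 6 libraries in 6 of the 8 genes, against 28.2% of all genes tested. The summed CPM of the 8 was 796, 986 and 1019 in Ctrl and 901, 900 and 869 in Rb2. The Rb2 libraries lay between Ctrl replicate 1 and the other Ctrl libraries. The ratio of the means, Rb2 over Ctrl, was 0.953, and without Ctrl replicate 1 it was 0.887. On the deposited CPM, which carries no TMM scaling, it was 1.03, so its direction turned with the scaling. The genes whose standardised profile over the 6 libraries was nearest to the mean profile of the 8 were Pfkp, Tssc4, Wdr12, AABR07029002.2 and Srpra, with a root-mean-square difference of 0.036 to 0.128 SD units, where the median of 6537 genes was 1.13. The distances of the 8 themselves ran from 0.138 for Cyp51 to 1.02 for Insig1, so the mean profile lay close to Cyp51 and far from several of the others, with Hmgcs1 at 0.934, Fdps at 0.917 and Idi1 at 0.822. None of the 5 was called (edgeR adjusted p = 0.682 to 0.76). Their choice made this likely beforehand, since the groups overlap in the mean profile they were matched to.

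At the transcript level, 23 transcripts were listed for the 8 genes, 13 of them models outside the annotation, and 16 passed the filter. With edgeR 0 of the 16 was called, as was 0% of the 16679 transcripts tested, and 0 of the 16 had an unadjusted p under 0.05 (13.8% of all). DESeq2 also called 0 of these transcripts. Idi1, Fdft1 and Cyp51 had 1 transcript each. For Fdps the annotated Fdps-202 held 93.8%, 94.2% and 94.4% of the counts in Ctrl and 93.8%, 93.6% and 93.8% in Rb2. For Sqle the annotated Sqle-201 held 59.8%, 68.1% and 64.5% in Ctrl and 67.2%, 71.8% and 70.3% in Rb2, and the shorter model ONT.15950.2 held 40.2%, 31.5% and 35.1% in Ctrl and 30.9%, 28.2% and 29.7% in Rb2. The shares of that model did not overlap between the groups (two-sided exact permutation test, p = 0.1, the lowest value possible with 3 against 3). Any shares without overlap give this p, so it adds nothing to the lack of overlap. Of the 13 member transcripts past the filter in genes with at least 2 of these, 3 had shares without overlap, Sqle ONT.15950.2, Fdps-202 and Insig1 ONT.12330.2, as did 14% of 8724 such transcripts in all genes. The lowest Ctrl and highest Rb2 shares were close: 31.46% and 30.94% for ONT.15950.2, 93.79% and 93.77% for Fdps-202, 27.72% and 27.59% for ONT.12330.2. The 95% Wilson intervals of these shares, which hold counting error only, overlapped in each of the 3. Transcript usage, tested with diffSpliceDGE in the 5 members with at least 2 transcripts past the filter, was called in 0 of 5 against 0.357% of 3361 genes. At an unadjusted p under 0.05 there was also 0 of 5 (2.08% of all genes), and 0 of 5 by the gene-level F test.

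Ctrl replicate 1 differed from the other 5 libraries in the transcript make-up of Insig1, Lss and Hmgcs1. Its share of Fdps-202 (93.8%) lay inside the range of the others (93.6% to 94.4%). In how many of all genes this library stood apart was not counted. In Insig1 the model ONT.12330.2 (3525 bases) took 93.6% of the counts in Ctrl replicate 1 (206 of 220; 95% Wilson interval 89.6% to 96.2%, counting error only). In Ctrl replicates 2 and 3 it took 37.9% and 27.7%, and in Rb2 27.6%, 21.7% and 23.4%. The model ONT.12330.1 (2454 bases) took nearly all of the rest. Ctrl replicate 1 thus held an Insig1 make-up seen in no other library. In Lss the annotated Lss-203 (3125 bases) took 53.6% in Ctrl replicate 1 (135 of 252; 95% Wilson interval 47.4% to 59.6%), 11.7% and 3.96% in the other Ctrl libraries and 11.4%, 9.42% and 11.8% in Rb2. The longer Lss-201 (4479 bases) was the main form in the other 5 libraries, at 75.5% to 88.1%. In Hmgcs1 the second model, ONT.9379.2, took 36.4% in Ctrl replicate 1 (95% Wilson interval 30.6% to 42.7%) and 8.51% to 17.3% elsewhere. The shift was toward the longer form in Insig1 and toward the shorter in Lss and Hmgcs1. At the gene level, Insig1 in Ctrl replicate 1 (26.7 CPM) was inside the range of the other libraries, while Lss (30.6 CPM) and Hmgcs1 (29.0 CPM) were lowest in that library. How the counter assigned reads shared by transcripts is not given in the sources used here.

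**Figure D4:**
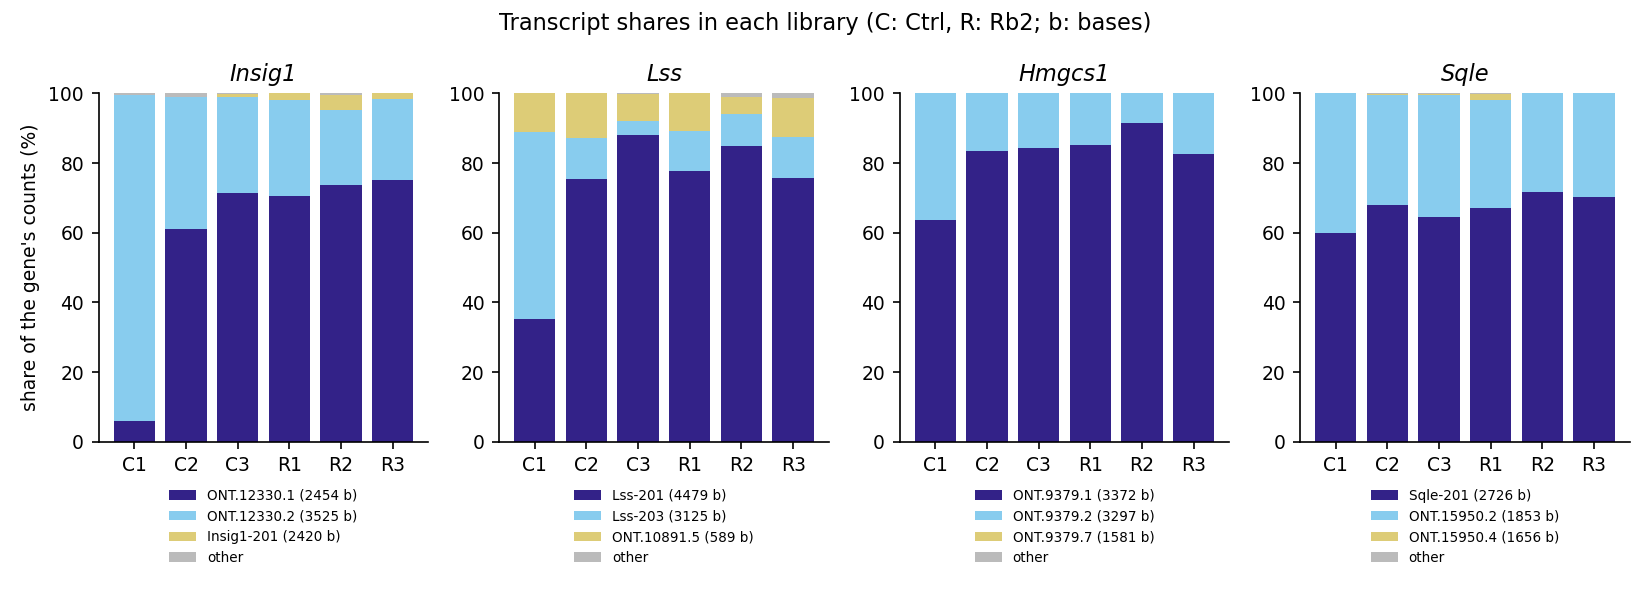
Share of each gene's counts (y axis, %) taken by its transcripts in each library (C: Ctrl, R: Rb2), with transcript lengths in bases (b), for the 4 genes of the 8 whose shares varied most. In Ctrl replicate 1 the longer Insig1 model takes 93.6% and Lss-203 takes 53.6%, unlike in the other 5 libraries.

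Of 13 other enzymes of cholesterol synthesis tested, 0 was called with edgeR (2.7% of all genes) and 0 had an unadjusted p under 0.05 (20% of all genes). The list also held Acly and Acss2, which supply acetyl-CoA. Its fold changes lay 9 above and 4 below 0, with a median of 0.10. Acat2, an acetyl-CoA thiolase and the highest of this list with means of 112 ± 40.3 and 127 ± 3.37 CPM for Ctrl and Rb2 (SD, n = 3), was at 65.6 CPM in Ctrl replicate 1.

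The regulators of the pathway did not pass the test. Srebf1, which encodes SREBP-1, the relative that favours fatty acid genes, measured 13.8, 13.2 and 15.7 CPM in Ctrl against 9.43, 10.1 and 10.7 CPM in Rb2, without overlap between the groups (log2 fold change -0.50, SE 0.17, edgeR adjusted p = 0.142). Srebf2, which encodes SREBP-2, measured 23.1, 15.9 and 15.6 CPM in Ctrl against 17.4, 18.4 and 16.7 CPM in Rb2 (log2 fold change -0.06, edgeR adjusted p = 0.889). Its Rb2 values fell between Ctrl replicate 1 and the other Ctrl libraries. Scap and Insig2, of the retention complex, had log2 fold changes of -0.34 and 0.05 (adjusted p = 0.609 and 0.921). In all, 0 of 14 tested genes of SREBP processing and lipoprotein uptake was called with edgeR, against 2.7% of all genes. Of the 14, 3 had an unadjusted edgeR p under 0.05 (Srebf1, Erlin2 and Lipa), against 20% of all genes, and the list's median was -0.07. Npc2, a carrier of cholesterol out of lysosomes, had its highest level, 567 ± 70.8 and 530 ± 11.1 CPM for Ctrl and Rb2 (SD, n = 3).

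Among neighbouring lipid pathways a single gene passed, where 2.7% of all genes tested did. Elovl6, an elongase of saturated fatty acids and a target of SREBP-1, was counted 8, 2 and 3 times in Ctrl and 21, 20 and 13 times in Rb2, or 0.971, 0.361 and 0.524 CPM and 3.74, 3.47 and 2.39 CPM. All Rb2 libraries were above all Ctrl libraries, at low counts. Its log2 fold change was 2.25 (SE 0.41, edgeR adjusted p = 0.0333), and it missed the threshold without Ctrl replicate 2 or without any 1 Rb2 library (adjusted p = 0.118 to 0.188) and with the replicate number as a block (adjusted p = 0.0612). Of 11 fatty acid synthesis genes tested, 1 rose, 0 fell and 10 did not pass, with a median of 0.18. Among all genes 1.9% were called higher and 0.805% lower. The list also held Acsl3 and Acsl4, which activate fatty acids. Of the 11, 3 had an unadjusted edgeR p under 0.05 (Elovl6, Acsl3 and Acsl4), against 20% of all genes. In the isoprenoid branch, which feeds prenylation and dolichol, 0 of 11 was called by edgeR (2.7% of all genes). With a median of 0.04, 0 had an unadjusted p under 0.05 (20% of all genes). Rabggtb, a subunit of the enzyme that prenylates Rab proteins, had the highest level at 114 ± 15.1 and 109 ± 1.36 CPM. Of 7 sterol efflux, esterification and LXR genes, 0 was called, against 2.7% of all genes (median -0.04). Cav1 was the 1 of the 7 with an unadjusted edgeR p under 0.05, against 20% of all genes. The LXR gene Nr1h2, with the list's highest mean over all 6 libraries, was at 32.5 ± 8.28 and 31.5 ± 5.05 CPM (SD, n = 3).

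**Figure D5:**
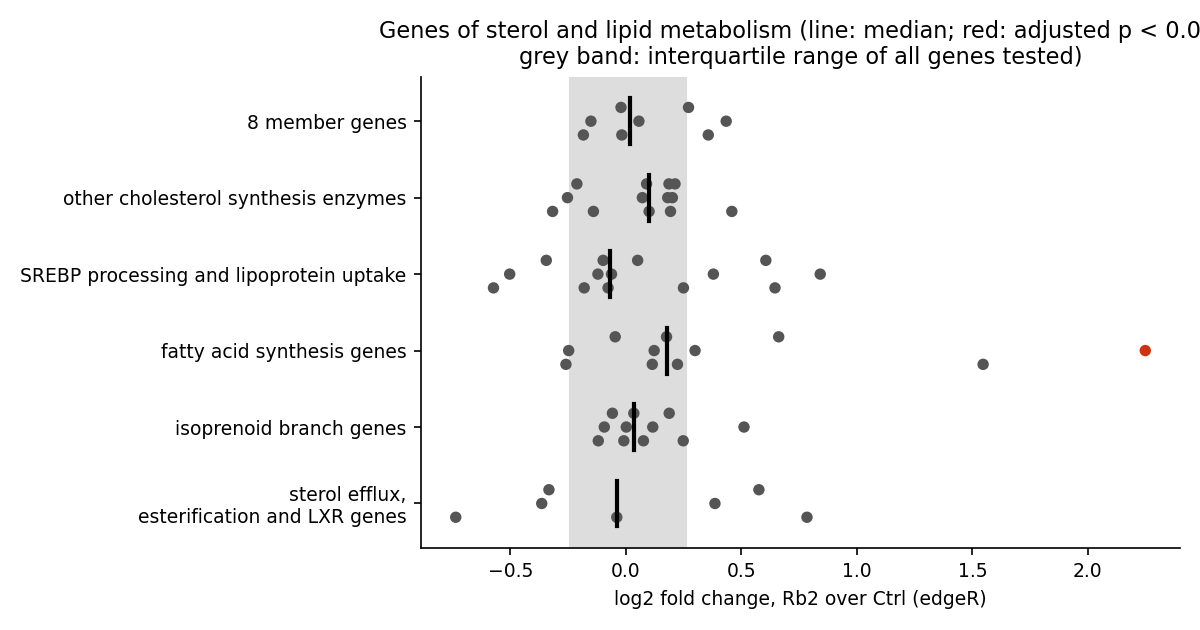
Log2 fold change of Rb2 over Ctrl (x axis, edgeR) of every tested gene of each list; the black line is the list's median, the grey band the interquartile range of all genes tested (-0.24 to 0.26), and red marks an adjusted p under 0.05. The 8 genes scatter about 0 with a median of 0.02, and Elovl6 at 2.25 is the single red point.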

How the data were processed

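Gene and transcript counts (whole numbers, 24360 and 44501 rows) and CPM were deposited by the authors; the deposited CPM equals the count over its column total (largest difference 4.9e-11). HISAT2, DESeq2 and mm10 are named, with no role or order, per the submitters' processing notes; known genes carry rat identifiers, so the build is unsettled. Nothing in the sources used here gives the counter, the annotation, the tool behind the new models or how reads of near-identical copies were counted. In each table, 18 further per-sample columns match no sample here and were not used.

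The tests used edgeR 4.0.16 under R 4.3.3 on the counts as deposited (TMM, filterByExpr, robust quasi-likelihood fit, group as the 1 term, Benjamini-Hochberg over all features, calls at adjusted p under 0.05) and transcript usage with diffSpliceDGE (Simes). Intervals are 95%. Alternatives used DESeq2 1.42.0, limma 3.58.1, other scalings, filters and units, a length offset (loess, span 0.5), the replicate block and each library left out. On simulated counts of 11551 genes, 48% of genes changed 2-fold and 88% changed 4-fold were recovered, with 8 unchanged genes called; of 16679 transcripts, 8% and 35%.

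The 8 genes and all lists were chosen with earlier results of these data known. Named were all 8 genes, Srebf1, Srebf2, Scap and Insig2, up to 4 called genes of each list by p (or the gene with the highest CPM), and the 5 genes likest in pattern with a mean of at least 5 CPM. Erlin2, Lipa, Cav1, Acsl3 and Acsl4 were added after their values were seen. Of the listed genes, those that matched no row were not analysed here, and some further genes of the pathway are not reported here and are left out of the lists.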

Additional observations from a re-analysis of the deposited data

How the results depend on the processing

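Over the 18 alternatives of the gene test, no member was called in 17; without Ctrl replicate 1, Fdps was called lower, so leaving out 1 library gave 0 to 1 members lower and 0 higher. No transcript of a member was called under 10 alternatives and no member for transcript usage under 8. Among all genes, 312 were called (219 higher), against 543 (463 higher) with library size only, 536 (386 higher) with no filter, 601 (514 higher) and 559 (480 higher) on the deposited CPM plus 1 and plus 0.1, 113 (83 higher) with known genes only, and 3 to 896 when 1 library was left out; upper-quartile factors gave 227 (135 higher), the length offset 249 (135 higher). Library size only moved the median of all genes from -0.016 to 0.096. The members' median log2 fold change of 0.02 became 0.139 and 0.142 on the deposited CPM plus 1 and plus 0.1, -0.115 with the length offset, and 0.0016 to 0.187 with 1 library left out. In the same order the median of all genes was 0.095, 0.106, -0.041 and -0.018 to 0.015. On the deposited CPM the median of all genes thus rose along with that of the members. The cause of these moves was not tested.

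Fold changes near 0 turned sign. Those of Lss were 0.094 with library size only, 0.093 and 0.095 on the deposited CPM plus 1 and plus 0.1, 0.0047 with no filter and -0.059 to 0.041 with 1 library left out. In the same order those of Insig1 were 0.088, 0.107, 0.111, 8.6e-05 and -0.227 to 0.229. For Srebf2 they were 0.055 with library size only, 0.078 and 0.083 on the deposited CPM plus 1 and plus 0.1, and -0.151 to 0.173 with 1 left out. Cyp51 was at -0.078 under the length offset. With 1 library left out, Fdft1 ran from -0.347 to 0.013, Scap from -0.599 to 0.041 and Insig2 from -0.036 to 0.131. The directions of Hmgcs1, Idi1, Sqle, Fdps, Srebf1 and Elovl6 held in all 18; DESeq2 gave Elovl6 no adjusted p.

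Replicate numbers did not pair the samples: deviations of same-numbered samples from their group means correlated at -0.067, -0.061 and -0.0067, and no sample correlated best with its own number. With the replicate block, 33 genes (12 higher) and 0 members were called, and Elovl6 was the one named call it ended. Of the genes whose fold changes are given, Elovl6 had the fewest counts, 2 to 21 per library.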
